A study of Mus musculus with 5 samples.

Results

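The genes described here are 10 members of the Hippo pathway and its nuclear effectors, out of 21774 protein-coding genes that have an annotated transcription start site (TSS) in the RefSeq annotation of mouse GRCm38.p6, which is the mm10 build of the data. They are the coactivators Yap1 and Wwtr1, the DNA-binding factors Tead1, Tead2, Tead3 and Tead4, the cofactor Vgll4, the kinases Lats1 and Lats2, and the angiomotin Amotl2. They were chosen by symbol from the list of pathway genes. In each stage, a gene was given every listed DNaseI hypersensitive site within 1 kb of any of its TSSs, together with sites inside the gene or up to 100 kb from its TSS for which it was the nearest protein-coding gene.

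The study followed mouse embryonic stem (ES) cells of strain 129, which carry a GFP reporter in the brachyury gene, through blood development in culture. It mapped open chromatin by sequencing DNA ends cut by DNaseI, an enzyme that cuts where DNA is not packed by nucleosomes, in 5 sorted populations: mesoderm (MES; Bry.GFP+, FLK1-), hemangioblasts (HB; Bry.GFP+, FLK1+), hemogenic endothelium (HE; Bry.GFP+, Tie2+/cKit+/CD41-), hematopoietic progenitors (HP, sorted as CD41+), and, grown from CD41+ cells, CD11b+ macrophages (MAC). All came from the same reporter line, so every stage is a cultured counterpart of an embryonic cell. There was 1 list of sites per stage, and the MAC label names replicates 1 and 2 together, so no stage has a replicate list and no test between stages could be made.

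The lists held 21949 sites in MES, 24729 in HB, 33305 in HE, then 17734 in HP and 37456 in MAC. A site is an interval with a start and an end in steps of 100 bp, with no score and no read count, so the read depth behind it is unknown and a gene without a site was below the calling threshold rather than shown to be closed. The median site was 1200 bp wide in HE and 600 bp wide in MAC, and widths are compared between stages with that in mind. Promoters of the marker genes were read against the sort labels, and they matched in part. Listed in the labelled stage and not elsewhere were Tek and Cdh5 for HE, and Itgam, Csf1r and Adgre1 for MAC. T was open in MES and HB, and Mixl1 and Eomes in HE too. Itga2b, the gene of CD41, was open in HP but also in HE, which was sorted as CD41-, and Spi1 in HE, HP and MAC. No hemangioblast marker was particular to HB: Kdr was listed in all 5 stages and Etv2 in every stage but MAC. Kit, a sort marker of HE, was also listed in every stage but MAC, Cd68 in all 5, and Gfi1b, a progenitor marker, in MAC alone. Of the markers of other cells, Cdh1, Col1a2 and Nanog were open in MES, HB and HE, Epcam in MES and HB, Col1a1 in every stage but MAC and Pou5f1 in MES, so none was open in MAC. How far cells of other types contributed to the members' sites was not tested.

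In the Hippo pathway, a kinase cascade ending in Lats1 and Lats2 phosphorylates Yap1 and its relative Wwtr1 (also called Taz) and keeps them in the cytoplasm. When the cascade is quiet, both coactivators enter the nucleus and switch on genes by binding Tead proteins, which recognise the DNA themselves but activate little without a partner. Vgll4 competes with Yap1 for the Tead proteins, and Amotl2 holds Yap1 at cell junctions. The pathway is known for reading cell contact, shape and mechanical load, and for setting growth in epithelia, endothelium and mesenchyme.

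The 10 members together received 163 of the 135173 listed sites. All 10 had a promoter site in MES, HB and HE, against 55.5%, 57.1% and 59.9% of all protein-coding genes in the same lists. In HP the count was 9, against 48.6% of all genes. In MAC it was 3, against 48.7% of all genes, a background that had hardly moved from HP. All 10 members were open in MES, HB and HE jointly, as were 51.4% of all genes. Of the 9 members open in HP, 6 had no promoter site in MAC (66.7%), whereas 10.6% of all genes open in HP had none in MAC. The pattern of a promoter open in every stage but MAC was held by these 6 members, Yap1, Tead1, Tead2, Tead3, Lats2 and Amotl2, and by 3.81% of all genes. It depended on narrow sites: with sites below their list's median width left out, Tead2 and Amotl2 alone held it (2.96% of all genes), and 3 of the 6 members then open in HP had no promoter site in MAC, against 11.5% of all genes. With every list shortened to the length of the HP list by width, Yap1, Tead2, Lats2 and Amotl2 held it (7.83% of all genes), and 6 of 9 had none in MAC, against 25.2% of all genes. A promoter open in all 5 stages, which 42.0% of all genes had, was found in 3 members, Wwtr1, Vgll4 and Lats1.

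**Figure D1:**
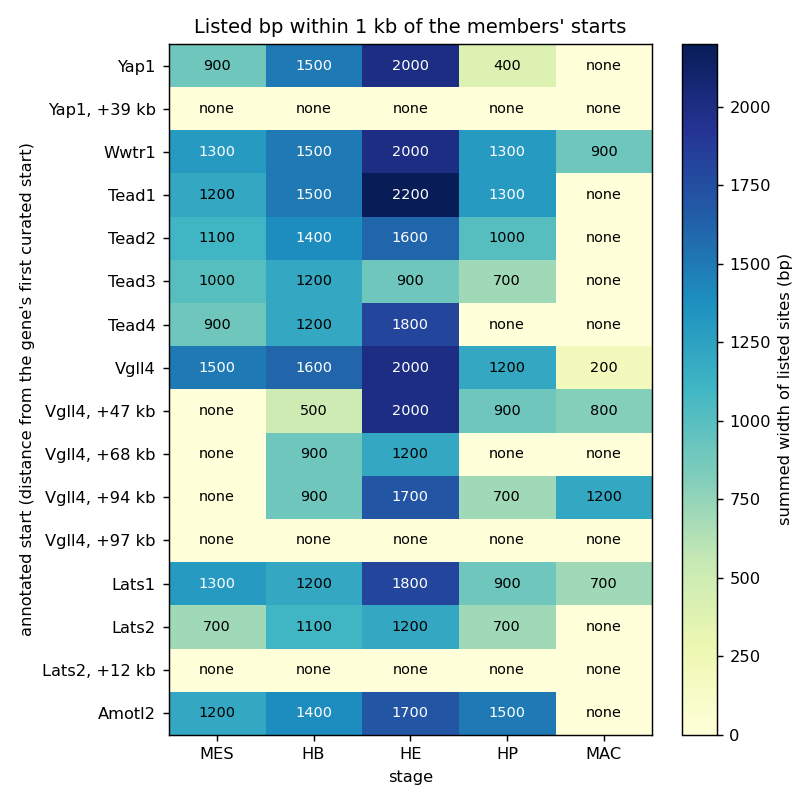
Summed width in bp of the listed sites within 1 kb of each annotated start of the members (rows; starts closer than 1 kb share a row, and internal starts carry their distance in kb) in the 5 stages (columns); darker means wider and none means no listed site. Widths reach 2000 bp or more in HE for Yap1, Wwtr1, Tead1 and Vgll4, and the MAC column is empty for 7 of the 10 genes.

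Yap1 and Wwtr1 are paralogous coactivators, and their promoters parted in MAC. The Yap1 promoter site was 900 bp wide in MES, 1500 in HB, 2000 in HE and 400 in HP, and MAC had none. The site therefore widened up to HE and was at its narrowest in HP. The median promoter site of all genes also widened, from 1000 bp in MES to 1200 in HB and 1600 in HE. In HP that median was 1100 bp. The nearest MAC site lay 38.1 kb upstream of the Yap1 TSS. The Wwtr1 promoter site was 1300 bp wide in MES, 1500 in HB, 2000 in HE, then 1300 in HP and 900 in MAC. It was listed in every stage, and its MAC width exceeded the 800 bp of the median MAC promoter site.

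Both promoters hold the core word bound by Tead proteins, CATTCC, just upstream of their TSS, in both on the strand opposite to the gene, so that the run along the gene shows its reverse complement. They are shown because they share the word and differ in MAC. The bases lie upstream of every annotated exon, are read from RefSeq GRCm38.p6 along the gene, and carry the word in capitals. The sequence is that of the reference, not of the strain 129 cells.
Yap1 promoter (chr9:8004639-8004846, - strand): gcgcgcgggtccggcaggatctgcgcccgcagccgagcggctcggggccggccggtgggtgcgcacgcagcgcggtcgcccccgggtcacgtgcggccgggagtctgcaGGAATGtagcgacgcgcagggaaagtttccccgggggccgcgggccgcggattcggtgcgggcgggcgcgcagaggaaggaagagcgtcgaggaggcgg
Wwtr1 promoter (chr3:57575911-57576160, - strand): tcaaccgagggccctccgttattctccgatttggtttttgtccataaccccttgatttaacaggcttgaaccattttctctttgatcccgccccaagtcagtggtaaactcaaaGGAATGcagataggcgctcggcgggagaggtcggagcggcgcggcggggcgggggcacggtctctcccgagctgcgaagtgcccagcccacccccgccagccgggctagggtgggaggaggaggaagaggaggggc
The Yap1 stretch has 77.4% G and C and 36 CG steps, and the Wwtr1 stretch 61.6% and 18. Among the promoters in the RefSeq table used here, 12.6% of 32851 hold the word on either strand in the 250 bases before the TSS. The table has 12 promoters of 8 members, and 7 of the 12 hold it. Some of these overlap, so they are not independent. Tead1 and Tead4 have no entry.

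Away from its promoter, Yap1 had 2 intronic regions, at 46.2 kb and 45.1 kb downstream of the TSS. The first (chr9:7958101-7958779) was open in HB and HP, with sites of 500 and 600 bp. The second (chr9:7959201-7959700) was open in HB alone, with a site of 700 bp. Yap1 thus had 1 site in MES, 3 in HB, 1 in HE, then 2 in HP and 0 in MAC. With the nearest gene taken by its body, it had 2, 4, 2, 3 and 1 from MES to MAC. An internal start of Yap1 known from predicted transcripts, 39 kb into the gene, had no site in any stage. Of all regions away from promoters, 71.2% were open in a single stage. Wwtr1 had 7 regions away from its promoter, each open in a single stage. Of these, 4 intronic regions were open in HE, with sites of 900 to 1300 bp, 2 intronic regions were open in MAC (400 and 800 bp), and 1 region 7.83 kb upstream was open in MES (300 bp). The widest was chr3:57540928-57541427, 34.7 kb into the gene and open in HE. HB and HP had the Wwtr1 promoter and nothing else. When genes of any type could be nearest, Wwtr1 had 2 sites in HE and 1 in MAC in place of 5 and 3.

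The Tead genes encode the DNA-binding partners of both coactivators, and Tead1 carried the most sites of all members. Tead1 received 4 sites in MES, 14 in HB, 14 in HE, then 8 in HP and 1 in MAC. In HB only 5 protein-coding genes, Tead1 included, had 14 sites or more. The corresponding numbers were 39 genes with at least 14 in HE and 28 genes with at least 8 in HP. In MAC, by contrast, 14038 genes had at least 1. The gene is 227 kb long, and whether the number of sites follows gene length was not tested. With every list shortened to the length of HP by keeping its widest sites, Tead1 had 4 sites in MES, 6 in HB, 7 in HE, then 8 in HP and 0 in MAC, so its highest count was then in HP and its lowest in MAC as before. When genes of any type could be nearest, it had 3, 11, 9, 5 and 1 from MES to MAC, and with the nearest gene taken by its body 5, 16, 15, 10 and 3. Its sites merged into 18 regions (500 bp windows around the middle of each site, joined where they overlapped by the minimum that the methods of the study use). Of these, 14 were open in HB, 14 in HE, 8 in HP, 4 in MES and 1 in MAC, and 6 were open in a single stage. Over all regions, promoters included, 60.2% were open in a single stage.

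The Tead1 promoter site was 1200 bp wide in MES, 1500 in HB and 1300 in HP. In HE it was a pair of sites of 1100 bp each, the second of them centred 1.42 kb inside the gene. MAC had none, and its nearest site lay 17.6 kb downstream of the TSS. Away from the promoter, 3 Tead1 regions were open in 4 stages. The region 15.9 kb upstream (chr7:112663159-112663826) was listed from MES to HP with sites of 600, 900, 1100 and 500 bp. The intronic region at 128 kb (chr7:112806977-112807876) was also listed from MES to HP, with sites of 800, 500, 1000 and 300 bp. The intronic region at 17.9 kb (chr7:112696927-112697608) had the other order: no site in MES, then sites of 400 bp in HB and 1500 bp in HE, with 400 bp for HP and 600 bp for MAC. It was the single Tead1 region open in MAC, where its site was as wide as the median MAC site. The widest Tead1 site away from the promoter, 1800 bp, was the HB site at 101 kb (chr7:112780327-112781008), a region open in HB and HE. Another 4 regions between 74.5 and 115 kb were open in HB alone, 1 of them centred on a coding exon. Of all regions away from promoters, 6.58% were open in HB alone.

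The upstream region shared by MES to HP and the intronic region shared by HB to MAC are shown as the opposite ends of the Tead1 pattern, with the Tead word in capitals.
Tead1, 15.9 kb upstream (chr7:112663372-112663611, + strand): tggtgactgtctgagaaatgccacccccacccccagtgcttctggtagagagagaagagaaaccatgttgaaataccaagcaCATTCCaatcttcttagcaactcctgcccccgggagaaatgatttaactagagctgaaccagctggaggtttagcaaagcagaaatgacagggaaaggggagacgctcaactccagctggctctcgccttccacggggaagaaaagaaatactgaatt
Tead1, 17.9 kb into the gene (chr7:112697027-112697286, + strand): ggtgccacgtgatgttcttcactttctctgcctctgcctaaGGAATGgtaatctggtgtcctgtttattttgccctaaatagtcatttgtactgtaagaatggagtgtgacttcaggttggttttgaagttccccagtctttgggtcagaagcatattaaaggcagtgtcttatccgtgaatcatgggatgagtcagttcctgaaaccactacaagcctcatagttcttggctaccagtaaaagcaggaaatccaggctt
Each holds a single copy of the word. Of the 16 Tead1 regions away from the promoter, 9 hold it in their central 500 bp, 6 hold the GATA word AGATAA and 6 the RUNX word TGTGGT. Over all regions away from promoters the shares were 29.3%, 27.4% and 37.3%, and the RUNX count of Tead1 is at that level.

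**Figure D2:**
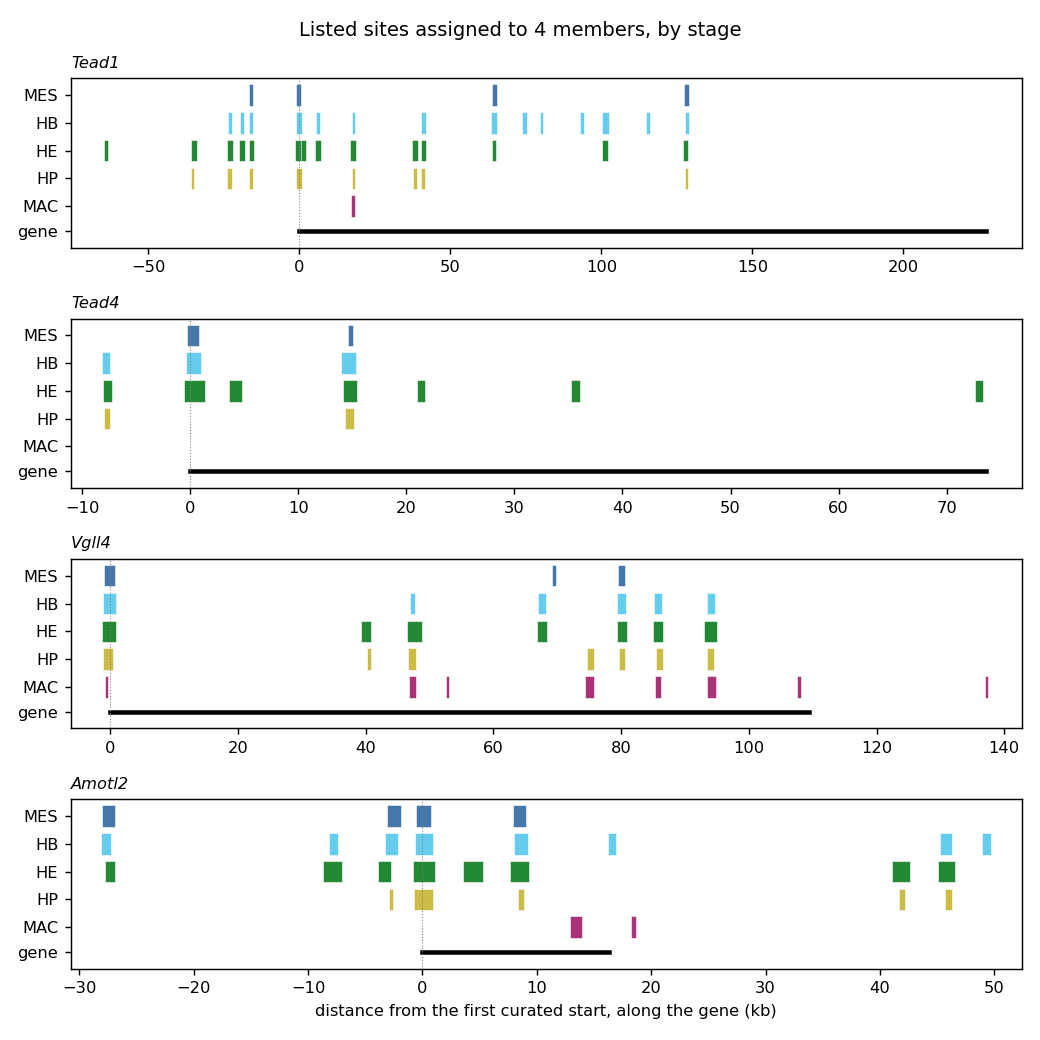
Listed sites assigned to Tead1, Tead4, Vgll4 and Amotl2 (panels), drawn to scale by distance in kb from the first curated start along the gene, with a row per stage and the gene as a black line. Tead1 has 14 sites in HB and 1 in MAC, Tead4 has none in MAC, and Vgll4 has 8 sites in MAC.

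In the full lists Tead4 alone among the members had no promoter site in either HP or MAC, while without sites below the median width 4 members had none, with Yap1, Tead3 and Lats2 beside it. Its promoter site was 900 bp wide in MES, 1200 in HB and 1800 in HE, and the nearest HP site was 7.54 kb upstream. The nearest MAC site was 44.8 kb away. Yet Tead4 had 2 sites in HP, beside 2 in MES, 3 in HB, 7 in HE and 0 in MAC. These HP sites lay in regions already open in HB and HE: an intronic region at 14.8 kb (chr6:128285698-128286379, open from MES to HP with sites of 300, 1200, 1100 and 600 bp) and a region 7.71 kb upstream (sites of 500, 700 and 300 bp in HB, HE and HP). Hence in HP the Tead4 promoter was off the list while both of these regions were on it. Both HP sites were narrower than the median HP site of 900 bp. With such narrow sites left out, Tead4 had no HP site and the contrast was gone. The other 4 Tead4 regions away from the promoter were open in HE alone, with sites of 500 to 1000 bp. Of all regions away from promoters, 18.9% were open in HE alone.

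The Tead4 promoter region holds 3 copies of the Tead word within 27 bases, in a noncoding exon. The stretch was noticed after its values were seen. Among the central 500 bp of all 68842 merged regions whose sequence was read, 9 hold 3 copies within 30 bases (0.0131%). The stretch is shown with the intronic region that kept its HP site.
Tead4 promoter stretch (chr6:128300457-128300483, - strand): CATTCCagcgccCATTCCgtgCATTCC
Tead4, 14.8 kb into the gene (chr6:128285908-128286167, - strand): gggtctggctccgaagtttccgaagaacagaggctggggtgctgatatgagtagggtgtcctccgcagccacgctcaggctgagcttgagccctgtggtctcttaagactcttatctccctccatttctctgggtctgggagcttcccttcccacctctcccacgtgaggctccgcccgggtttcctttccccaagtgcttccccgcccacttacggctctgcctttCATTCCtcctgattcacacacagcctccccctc

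Tead2 and Tead3 had fewer sites. Tead2, a gene of 17.7 kb, had its promoter site alone, 1100 bp wide in MES, 1400 in HB, 1600 in HE, then 1000 in HP and absent from MAC. The Tead3 promoter site was 1000 bp wide in MES, 1200 in HB, 900 in HE and 700 in HP, and MAC had none. Apart from the split Tead1 site, it was the only member promoter site narrower in HE than in MES, and its HE width was below the 1600 bp of the median HE promoter site. Tead3 also had an intronic region at 9.60 kb (chr17:28340879-28341541), with sites of 900 bp in MES, 1200 in HB and 600 in HP and none in HE, and a second at 5.48 kb open in HB alone (800 bp). Tead3 was thus listed 2 times in MES, 3 in HB and 2 in HP, but its promoter was its only site in HE. With the nearest gene taken by its body, Tead3 had 3 sites in MES, 4 in HB, 2 in HE and 2 in HP.

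Vgll4, which competes with Yap1 for Tead proteins, had more sites in MAC than any other member, and its counts were 3 in MES, 6 in HB, 7 in HE, then 7 in HP and 8 in MAC. That MAC held the highest count was not stable: HE, HP and MAC all had 7 with a reach of 50 kb or the nearest gene by body, HE and MAC both had 8 when genes of any type could be nearest, and HE had 6 and MAC 4 at the median width. With lists of equal length HP had 7, HE 6, HB 5 and MAC 3. In MAC 615 genes had at least 8 sites, and in HP 58 genes had at least 7. Vgll4 has several alternative promoters, and they differed by stage. At the first one (chr6:114969080-114970099) the site was 1500 bp wide in MES, 1600 in HB, 2000 in HE, then 1200 in HP and 200 in MAC. At the start 47 kb further into the gene (chr6:114921259-114922256) MES had none, the HB site was 500 bp wide, that of HE 2000, that of HP 900 and that of MAC 800. At the start 94 kb into the gene (chr6:114874800-114875456) MES again had none, and HB to MAC had 900, 1700, 700 and 1200 bp. At the start 68 kb into the gene (chr6:114901330-114901858) sites were listed in HB (900 bp) and HE (1200 bp) alone. In MES only the first promoter was listed, and in MAC the sites at 47 and 94 kb were wider than that at the first. The starts at 68 and 94 kb come from predicted transcripts, the first and the one at 47 kb from curated ones, and a further predicted start at 97 kb had no site in any stage. Between them, the intronic region at 85.9 kb (chr6:114882957-114883729) was open from HB to MAC with sites of 900, 1200, 900 and 600 bp, and the region at 80.1 kb was open from MES to HP.

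The kinases Lats1 and Lats2, which phosphorylate both coactivators, also parted in MAC. Lats1 had its promoter site and nothing else in each stage, 1300 bp wide in MES, 1200 in HB, 1800 in HE, then 900 in HP and 700 in MAC. The start of Pcmt1 lies within 1 kb of the Lats1 TSS, so this site belongs to both genes. The Lats2 promoter site was 700 bp wide in MES, 1100 in HB, 1200 in HE and 700 in HP, with none in MAC and none in any stage at the second curated start 12 kb into the gene. Lats2 had 1 site in MES, 4 in HB, 5 in HE, then 2 in HP and 2 in MAC. Both MAC sites were intronic: at 33.1 kb (400 bp, MAC alone) and at 15.9 kb (chr14:57729929-57730457), where HE had 1500 bp and MAC 700 bp. The region 14.5 kb upstream of Lats2 (chr14:57760340-57760957) was open in HB, HE and HP with sites of 700, 1100 and 700 bp. It is shown because it holds a pair of Tead words on opposite strands, and a RUNX word besides.
Lats2, 14.5 kb upstream (chr14:57760538-57760757, - strand): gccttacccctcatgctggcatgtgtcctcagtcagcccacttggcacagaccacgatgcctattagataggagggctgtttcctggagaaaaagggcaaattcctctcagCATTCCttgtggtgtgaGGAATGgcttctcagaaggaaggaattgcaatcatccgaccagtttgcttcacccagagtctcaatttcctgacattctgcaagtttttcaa

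Amotl2, the angiomotin that binds Yap1 at junctions, had 4 sites in MES, 8 in HB, 8 in HE, then 5 in HP and 2 in MAC. In HB 116 genes had at least 8 sites. When genes of any type could be nearest, Amotl2 had 3, 4, 5, 3 and 0 sites from MES to MAC. The gene is 16.3 kb long, and 9 of its 13 regions lay outside it. The Amotl2 promoter site was 1200 bp wide in MES, 1400 in HB, 1700 in HE and 1500 in HP, and MAC had none, its nearest site being 13.0 kb downstream. The intronic region at 8.54 kb (chr9:102726001-102726679) was open from MES to HP with sites of 1000, 1000, 1500 and 400 bp. The widest site away from the promoter, 1600 bp, was at 4.40 kb in HE alone. Of all regions away from promoters, 38.5% were open in MAC alone. Both Amotl2 regions in MAC, at 13.4 kb (900 bp) and 18.4 kb (300 bp), were open in MAC alone. Hence none of the 11 Amotl2 regions listed in earlier stages was listed in MAC. Of the 12 regions away from the promoter, 7 hold the Tead word, which 29.3% of all such regions hold. The Amotl2 promoter and a pair of its regions are shown with the word in capitals.
Amotl2 promoter (chr9:102717554-102717803, + strand): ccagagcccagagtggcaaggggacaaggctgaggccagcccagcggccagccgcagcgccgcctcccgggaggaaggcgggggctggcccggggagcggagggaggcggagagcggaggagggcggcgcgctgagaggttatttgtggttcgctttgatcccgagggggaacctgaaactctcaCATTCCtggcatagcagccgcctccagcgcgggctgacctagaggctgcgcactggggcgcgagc
Amotl2, 2.64 kb upstream, open in MES, HB and HP (chr9:102715055-102715274, + strand): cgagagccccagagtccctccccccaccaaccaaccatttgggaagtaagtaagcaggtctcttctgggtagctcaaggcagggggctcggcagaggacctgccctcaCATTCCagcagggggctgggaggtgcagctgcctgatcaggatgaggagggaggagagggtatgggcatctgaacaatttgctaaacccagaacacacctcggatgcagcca
Amotl2, 16.5 kb downstream, open in HB (chr9:102734130-102734349, + strand): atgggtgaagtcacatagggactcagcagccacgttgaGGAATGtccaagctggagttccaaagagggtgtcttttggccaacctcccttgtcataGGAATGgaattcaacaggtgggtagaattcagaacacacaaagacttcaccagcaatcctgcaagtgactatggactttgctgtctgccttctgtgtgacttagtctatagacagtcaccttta

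**Figure D3:**
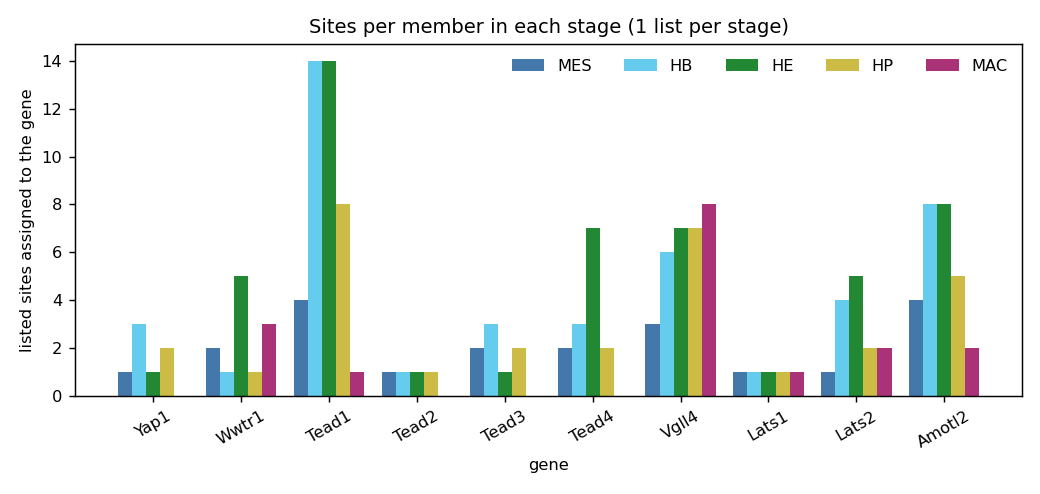
Number of listed sites assigned to each member (groups of bars) in the 5 stages (colours), from 1 list per stage with no error bars. Tead1 reaches 14 in HB and HE and falls to 1 in MAC, and Vgll4 has 8 in MAC, a lead over HE that is lost under each alternative assignment; with lists of equal length Vgll4 has 3 in MAC and 7 in HP.

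Summed over the members, there were 21 sites in MES, 44 in HB, 50 in HE, then 31 in HP and 17 in MAC. The lists differ in length, and per 10000 listed sites the members held 9.57 in MES, 17.8 in HB, 15.0 in HE, then 17.5 in HP and 4.54 in MAC. The MAC list was the longest and held the fewest member sites. With lists of equal length the highest total was that of HP, 31, with 30 in HE and 8 in MAC. When sites narrower than their list's median were left out, MAC had 10 and HP 9, so MAC was then not the lowest. The mean member had 4.40 sites in HB and 1.70 in MAC, and the mean protein-coding gene 1.13 and 1.63. Of the 17 MAC sites, 8 were at Vgll4, and Yap1, Tead2, Tead3 and Tead4 had none. With the nearest gene taken by its body the MAC total was 24, and Yap1 and Tead4 had 1 each.

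The member sites merged into 73 regions out of 68846 in the series, 14 at promoters and 59 away from them. Of the 59, 31 were open in HB (52.5%, 95% Wilson interval 40.0 to 64.7%), whereas 24.5% of all 52036 regions away from promoters were open there. In HE 36 were open (61.0%, interval 48.3 to 72.4%), against 39.6% of all. In HP 20 were open (33.9%, interval 23.1 to 46.6%), against 15.0% of all. In MES 11 were open (18.6%, interval 10.7 to 30.4%), against 19.8% of all. In MAC 12 were open (20.3%, interval 12.0 to 32.3%), against 51.8% of all. The members' share was thus above that of all regions in HB, HE and HP, close to it in MES and below it in MAC. The lead in HB was smaller with lists of equal length. There 53.1% of the 49 member regions, promoters included, were open in HB, against 44.5% of all. In the full lists, promoters included, the shares were 60.3% of member regions and 35.9% of all. The intervals cover counting error over regions only, and regions of a gene are not replicates.

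**Figure D4:**
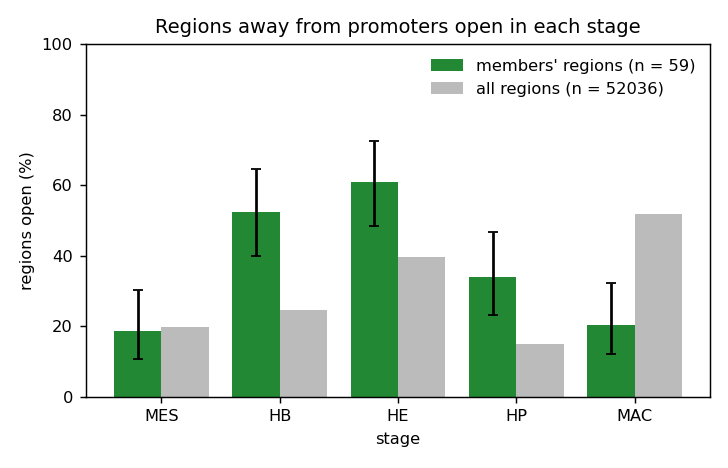
Share of regions away from promoters that are open in each stage (%, with 1 list per stage), for the 59 regions of the members (green, with 95% Wilson intervals that cover counting error only) and for all 52036 such regions (grey). The members' bar is above the grey bar in HB, HE and HP and below it in MAC, 20.3% against 51.8%.

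Of the members' 73 regions, 32 were open in a single stage (43.8%), against 60.2% of all regions. Regions open in MAC alone were 8 of the members' 73 (11.0%) and 31.0% of all regions. Those open in HB and HE alone were 7 (9.59%, against 1.91% of all), and those open from MES to HP but not in MAC were 11 (15.1%, against 2.33%). Following the stages in order, 19 of the 21 member regions open in MES were still open in HB (90.5%, against 81.5% of all regions), and 25 were first added in HB. From HB to HE 33 of 44 were kept (75.0%, against 63.7%), and from HE to HP 26 of 50 (52.0%, against 42.9%). From HP to MAC 8 of 31 were kept (25.8%, interval 13.7 to 43.2%), against 66.2% of all regions. Away from promoters the last step kept 3 of 20 member regions, 15.0%, against 42.9% of all. Of the 3, 1 was the Tead1 region at 17.9 kb and the others were in Vgll4.

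The central 500 bp of each region was searched for 5 short words on both strands. The Tead word CATTCC was in 31 of the members' 73 regions (42.5%, interval 31.8 to 53.9%) and in 26.7% of all regions. At promoters it was in 8 of 14 (57.1%, interval 32.6 to 78.6%), against 18.7% of all promoter regions, and away from promoters in 23 of 59 (39.0%, interval 27.6 to 51.7%), against 29.3%. The 8 promoter regions with the word were those of Wwtr1, Tead1, Tead3, Tead4, Lats2 and Amotl2 and 2 of Vgll4. Away from promoters the interval of the members reaches the share of all regions. By gene, the word was in 9 of 16 regions of Tead1, 7 of 12 of Amotl2 and 3 of 7 of Wwtr1, but in 2 of 9 of Vgll4, 1 of 6 of Tead4, 1 of 5 of Lats2, and in neither of the 2 of Yap1 nor the 2 of Tead3. The GATA word AGATAA, bound by blood and endothelial GATA factors, was in 24 of the 59 (40.7%, interval 29.1 to 53.4%), against 27.4%. The RUNX word TGTGGT was in 23 (39.0%), against 37.3%. The AP-1 word TGANTCA was in 16 (27.1%), against 27.3%, and the PU.1 word GAGGAA, bound by the myeloid factor encoded by Spi1, in 28 (47.5%), against 52.6%. The Tead word read backwards, CCTTAC, has the same base composition and was in 12 of the 73 (16.4%), against 15.0% of all. The Tead and PU.1 words can share bases, since the complement of the first begins with the letters GGAA that end the second. A match describes letters and not binding, and no match says only that the letters are absent from this window.

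**Figure D5:**
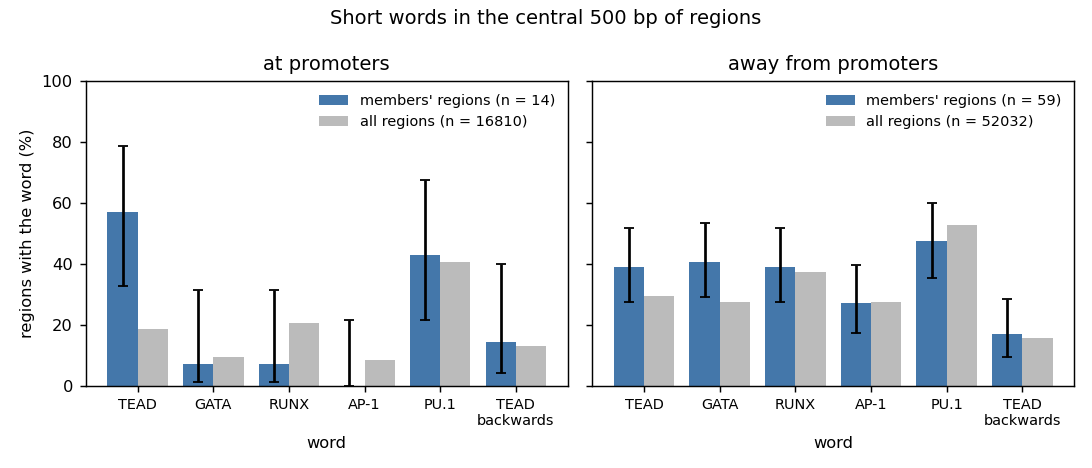
Share of regions (%) that hold each short word on either strand in their central 500 bp, for the members' regions (blue, with 95% Wilson intervals for counting error) and all regions (grey), at promoters (left) and away from them (right). The Tead word at promoters is at 57.1% against 18.7%, and the backwards word, a control with the same bases, is at 14.3% against 13.1%.

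The members' promoters resembled other listed promoters in base composition: 9 of their 14 promoter regions were CpG-rich (G and C at least 0.5 of bases and an observed to expected CG ratio of at least 0.6), 64.3% against 65.2% of all promoter regions. Those that were not included the region of Tead2 and the internal Vgll4 promoters. Away from promoters 1 of 59 was CpG-rich, 27.5 kb upstream of Amotl2 (1.69%, against 3.06% of all).

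A further 35 genes of the pathway, listed by role, were read in the same way. Their promoters had sites in 30 genes in MES, 30 in HB, 33 in HE, then 26 in HP and 17 in MAC. The shares of all protein-coding genes were 55.5, 57.1, 59.9, 48.6 and 48.7% from MES to MAC. The counts of the 35 were above those shares from MES to HP and near the share of all genes in MAC. Of the 26 open in HP, 10 had no promoter site in MAC (38.5%), beside the 10.6% of all genes. The roles are given side by side, with no test between them. Among the 9 kinases and their partners, which sit upstream of Lats1 and Lats2, 8 were open in all 5 stages, as were 42.0% of all genes, including Stk3, Stk4, Sav1, Mob1a and Mob1b, and Map4k4 was not. Among the 16 upstream and junction genes, 14 were open in MES, 15 in HE, 12 in HP and 7 in MAC. This MAC count was near the 48.7% of all genes. Open in every stage but MAC were Amot, Ptpn14, Limd1, Wtip and Csnk1e, a pattern held by 3.81% of all genes. Nf2, the junction protein merlin, was open in all 5. Of the 3 further Vgll genes, Vgll3 was open from MES to HP, Vgll2 from MES to HE and Vgll1 in no stage. Of the 7 targets, 5 were open in MES, 6 in HB, 7 in HE, then 4 in HP and 2 in MAC. The shares of all genes were 55.5, 57.1, 59.9, 48.6 and 48.7%, so the HP count was near its share. Ccn1 (Cyr61) and Ccn2 (Ctgf), secreted matrix proteins and the usual readouts of Yap1 activity, were open from MES to HP and not in MAC. Ankrd1 was open in HE and HP, Birc5 in all 5 stages and Ccnd1 in all but HP. Ccn1 had 5, 7, 8, 6 and 4 assigned sites from MES to MAC, and Ccn2 2, 2, 3, 3 and 5, so Ccn2 had its most sites in the stage where its promoter was not listed. Over the 35 genes the assigned sites numbered 66 in MES, 73 in HB, 106 in HE, then 59 in HP and 84 in MAC.

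The genes whose listed bases over the 5 stages were most like those of 3 members were named by Bray-Curtis similarity, which is 1 for identical profiles. For Yap1 they were Tmem174 (0.970) and Tbx18 (0.930). Yap1 covered 900, 2700, 2000, 1000 and 0 bp from MES to MAC, and Tmem174 1000, 2700, 2100, 800 and 0 bp. For Tead1 they were Rbpms (0.928) and Dab2ip (0.887), with Tead1 at 3600, 11800, 16400, 5200 and 600 bp and Rbpms at 6000, 11800, 15200, 4800 and 2200 bp. For Tead4 they were Rerg (0.958) and Dmrt3 (0.932), with Tead4 at 1200, 2900, 6400, 900 and 0 bp and Rerg at 1400, 3200, 6600, 900 and 300 bp.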

How the data were processed

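Open chromatin was measured by DNaseI-seq in 5 sorted populations, with 1 list per stage. Per the study's methods, the authors trimmed reads with CutAdapt, aligned them with Bowtie to mm10 (GRCm38), discarded reads without a unique position and duplicates (Picard), and called sites in 100 bp bins (DFilter). The submitters' processing notes name Bowtie and HOMER, and versions are not given in the sources used here. The deposited values are interval starts and ends, with no score, count or depth, and how the MAC replicates 1 and 2 were combined is not stated. Calling in 100 bp bins limits every edge to that step, and a site lost or gained near the threshold cannot be told apart from a change in chromatin.

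Starts were read as 0-based and converted. All intervals lay within the chromosome lengths of RefSeq GRCm38.p6, whose gene models gave TSSs (all transcripts for promoters, curated transcripts of 21000 genes for the nearest gene). Python 3.11.15, pandas 2.3.3, numpy 2.4.6, scipy 1.17.1 and matplotlib 3.10.9 were used, and the assignment and merging were tested on simulated sites. Sites were set to 500 bp around their middle and merged at the overlap the study used, since summits are not in the lists. For each member with any region more than 2 kb from its TSS, the text names the one open in most stages (the one with the widest site where several tie) and the one with the widest site, beside every promoter region. The 3 members compared with other genes each got their 2 most similar genes. No test was made, because a stage has 1 list. The members, gene lists and words were chosen with earlier results of these data known. Alternatives were other reaches, TSS sets, nearest-gene rules, width limits, merging rules and words.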

Additional observations from a re-analysis of the deposited data

How the results depend on the processing

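The promoter pattern of every member was the same with a reach of 2 kb or 100 bp and with curated TSSs alone. It was not with sites at or above their list's median width, where members with a promoter site fell from 9 to 6 in HP and from 10 to 8 in HE, nor with lists shortened to equal length by width, HP being the shortest, where HE fell to 8. The members open in every stage but MAC fell from 6 to 2 and 4. Under the median width Yap1 and Tead1 were listed in 3 stages and Tead3 and Lats2 in 2, and with equal list lengths Tead1 and Tead3 were listed in 3. The assigned sites moved with the same limits: under the median width they fell to 24 in HB and 30 in HE, with 9 in HP and 10 in MAC, and with equal list lengths to 26 in HB, 30 in HE and 8 in MAC, while HP kept its 31 and became the highest stage. Both limits keep fewer sites by construction, and MAC was no longer the lowest stage under the first. A reach of 50 kb and other nearest-gene rules kept every stage's total within 1.5 times, but not every gene's count: with the nearest gene of any type Amotl2 had 4 sites in HB, 5 in HE and 0 in MAC, Tead1 had 9 in HE, and Wwtr1 had 2 in HE and 1 in MAC. With the nearest gene by its body Tead1 had 3 sites in MAC, Wwtr1 5, and Yap1 and Tead4 1 each. In HE, Yap1 and Tead3 then had 2 each, in place of 1. The highest count of Vgll4, in MAC, was tied or lower under each of the 5 alternatives. Under the median width the members had 44 merged regions, in place of 73. With equal list lengths they had 49, of which 32.7% were open in 1 stage. In the full lists 43.8% of member regions were, against 60.2% of all regions. With equal list lengths 53.1% of the 49 were open in HB, against 44.5% of all regions. The share with the Tead word was 19.2% in the central 200 bp (interval 11.8 to 29.7%), against 12.2% of all regions. That interval reaches the share of all regions. In the central 500 bp the share was 27.4% for the word preceded by A or G and followed by A or T. Its interval was 18.5 to 38.6%, against 10.7% of all. For the backwards word the share was 16.4%. No paired analysis was possible because each stage has 1 list, and none could be left out. Depth is unknown, so absence from a list is not absence of open chromatin.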
